A study of Mus musculus with 15 samples.

Results

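The transcripts described here are the 200 of 42006 array probes whose signal fell most clearly in mouse liver between the day of birth (postnatal day 1, PND1) and 10 weeks of age (PND70) in animals given no arsenic. They were selected on the values themselves. For each probe the log2 ratio of liver signal to reference signal was taken from the processed signals of the scanner, and the gap was the lowest of the 3 PND1 control arrays minus the highest of the 3 PND70 control arrays. The 200 probes with the largest gap were kept. Their gaps ran from 2.74 to 7.15 on the log2 scale, with a median of 3.41. At the edge of the selection, Z00023162-1, Z00018409-1 and Z00018801-1 lay just inside with gaps of 2.77, 2.75 and 2.74, and Z00055154-1, Z00039077-1 and Z00024947-1 lay just outside, each with a gap of 2.73.

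Liver RNA (labelled with the green dye Cy3) was hybridized together with a reference RNA pooled from mouse cell lines (red dye Cy5) on 15 arrays, 3 in each of 5 groups. All mice carried the deletion of the apolipoprotein E gene (ApoE-/-) on the C57/BL6J background, controls included, so that no group shows the wild-type liver. PND1 control and PND70 control mice came from dams on tap water and received tap water themselves (labelled newborn tap and 10 week tap/tap). PND1 arsenic and PND70 arsenic mice (newborn as and 10 week as/tap) came from dams whose water held 49 ppm arsenic (sodium arsenite at 85 mg/L) between gestational day 8 and birth. PND70 postweaning arsenic mice (10 week tap/as) came from dams on tap water and drank the same arsenic solution from weaning on PND21 until 10 weeks. Each pup came from a separate litter, and the sex of the mice used for the arrays is not given in the labels. RNA of each age was extracted on a day of its own, so that age and extraction day cannot be told apart, and each array was its own slide.

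The liver of a newborn mouse is still a site of blood cell formation, and its hepatocytes divide and use a fetal set of genes. In the weeks after birth blood formation moves to the bone marrow and spleen, hepatocytes largely stop dividing, and the fetal genes are shut off while the enzymes and transporters of the adult liver take over. A transcript can therefore fall in whole liver because its cells leave or because its cells make less of it, and in RNA from whole tissue fewer cells of a type and less RNA per cell cannot be told apart. The files used here give each probe an identifier and a sequence and no gene, and a gene annotation of the array was not used here. The members are therefore given here by probe, no role can be stated for them, and the tissue label could not be checked against marker genes. In the promoter and microRNA sequences of RefSeq (GRCm38.p6), only 1 member, Z00065020-1, had a match of at least 30 bases, and it matched 2 genes on opposite strands, so that it was not named.

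The probe sequences are shown first for the 5 members with the largest gaps, since they rank first by the rule. Letters are 5′ to 3′ as deposited, and capitals mark the letters AATAAA, the signal that often precedes the end of an mRNA, where present.

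Z00058188-1: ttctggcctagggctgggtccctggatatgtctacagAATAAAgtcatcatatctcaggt

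Z00030743-1: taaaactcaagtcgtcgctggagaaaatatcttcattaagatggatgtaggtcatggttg

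Z00023637-1: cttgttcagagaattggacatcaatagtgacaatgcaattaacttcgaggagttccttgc

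Z00030431-1: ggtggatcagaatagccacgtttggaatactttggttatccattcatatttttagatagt

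Z00070004-1: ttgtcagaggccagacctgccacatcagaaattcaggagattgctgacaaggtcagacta

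The letters AATAAA occurred on the probe strand in 27 members, or 13.5%, against 6.75% of all probes. Their reverse complement, TTTATT, occurred in 4% of members and 3.42% of all probes. The base composition of the members was like that of the array, with a median GC content of 43.3% in both. The rule used no sequence, and these shares are a description of the letters in the probes.

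Several members hold overlapping sequence and may not be separate measurements. Joining members that shared at least 20 bases on the same strand gave 5 families that held 16 members, with 6, 3, 3, 2 and 2 probes, and reduced the 200 members to 189 separate sequences. The family of 6 is printed because its probes, joined by overlaps of 20 to 53 bases, fell to different extents. Some pairs within it share less, such as Z00034496-1 and Z00033752-1 with 15 bases and Z00030368-1 and Z00059316-1 with 18. Capitals mark the longest stretch shared with another member of the family.

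Z00034496-1: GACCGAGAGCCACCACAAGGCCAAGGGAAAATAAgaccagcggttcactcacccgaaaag

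Z00030368-1: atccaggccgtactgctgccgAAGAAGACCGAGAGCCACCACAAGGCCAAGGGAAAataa

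Z00032026-1: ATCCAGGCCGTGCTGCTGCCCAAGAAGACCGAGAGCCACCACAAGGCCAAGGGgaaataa

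Z00030367-1: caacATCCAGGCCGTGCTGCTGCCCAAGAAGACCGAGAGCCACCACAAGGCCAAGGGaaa

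Z00059316-1: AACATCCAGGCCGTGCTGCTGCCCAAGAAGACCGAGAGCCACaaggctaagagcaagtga

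Z00033752-1: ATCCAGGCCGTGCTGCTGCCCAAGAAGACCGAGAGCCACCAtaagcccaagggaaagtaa

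The probes of this family stood between 1.25 and 1.93 in PND1 control liver (mean log2 ratio of liver to reference over 3 arrays) and between -4.81 and -2.2 in PND70 control liver. In the exposed arrays, which did not enter the choice, the falls ran from 3.38 to 6.19, and the largest was that of Z00034496-1, the probe that reaches furthest downstream. For Z00034496-1, Z00032026-1, Z00030367-1 and Z00033752-1 the reference signal was saturated on all 15 arrays, so that their ratios are limited by the ceiling of the scanner.

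The family of 3 with the highest PND1 levels is shown because all its probes rank within the 18 largest gaps.

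Z00049259-1: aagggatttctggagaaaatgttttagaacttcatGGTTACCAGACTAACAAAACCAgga

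Z00054578-1: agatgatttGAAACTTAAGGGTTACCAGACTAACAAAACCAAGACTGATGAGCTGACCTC

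Z00025612-1: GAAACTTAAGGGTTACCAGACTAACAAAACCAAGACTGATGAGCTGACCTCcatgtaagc

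Their control means at PND1 were 5.57 to 5.95 and their PND70 control means -0.04 to 0.3, and in the exposed arrays they fell by 5.3 to 5.63. Shorter stretches of 14 to 19 bases joined further members of the first 15 to this family. Z00012052-1 shared 18 bases and Z00036982-1 shared 14 bases with Z00049259-1, Z00012052-1 and Z00036982-1 shared 16 bases with each other, and Z00048522-1 shared 14 bases with Z00054578-1 and with Z00025612-1. How many separate transcripts these probes read was not tested.

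A few probes outside the selection run along a member on the opposite strand. They are shown to set the strands side by side. Capitals mark the stretch that is the reverse complement of Z00034496-1 in the former and of Z00030791-1 in the latter.

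Z00071445-1: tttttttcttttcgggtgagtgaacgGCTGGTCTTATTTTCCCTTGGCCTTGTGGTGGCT

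Z00064622-1: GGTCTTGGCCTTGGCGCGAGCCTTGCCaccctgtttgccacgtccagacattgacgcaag

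Over 34 reverse-complementary bases, the opposite strand probe Z00071445-1 ranked 7568 by gap and fell by 0.57 ± 0.07 (SE) in the exposed arrays, against 6.19 ± 0.16 for Z00034496-1. Over 27 such bases, Z00064622-1 ranked 2662 and fell by 0.99 ± 0.07, against 3.86 ± 0.13 for Z00030791-1. Z00061841-1, which opposes Z00007231-1 over 26 bases, ranked 2111 and fell by 0.85 ± 0.1. All 3 opposite strand probes fell less than the members they face, and each still passed the adjusted threshold (limma, adjusted p = 2.67e-05, 1.58e-07 and 1.42e-05).

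On every array the values below are log2 ratios of liver to reference after background correction, quantile normalization and loess (see the processing), in which a fall of 1 is a halving of the ratio. Because each array is normalized over all its probes, 0 is the ratio of the typical probe and does not mean equal amounts in liver and reference pool, and a probe near the floor of the array can also lie near 0. Over the 200 members the median was 2.41, 2.54 and 2.62 on the PND1 control arrays and -1.29, -1.28 and -1.34 on the PND70 control arrays, while the median of all probes lay between -0.03 and -0.01 on all 15 arrays. It was 2.45, 1.98 and 1.66 on the PND1 arsenic arrays. It was -1.32, -1.31 and -1.27 on the PND70 arsenic arrays and -1.37, -1.37 and -1.19 on the PND70 postweaning arsenic arrays. The 9 arrays at PND70 thus lay close together, and the PND1 arsenic arrays were the ones that spread.

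**Figure D1:**
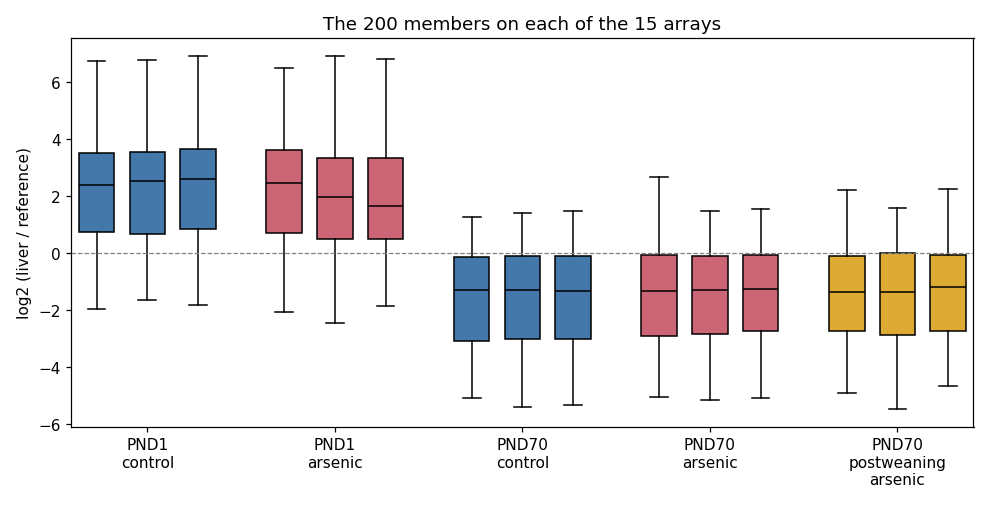
Log2 ratio of liver to reference (y axis) for the 200 members on each of the 15 arrays, grouped by age and exposure; boxes give quartiles and median, whiskers the lowest and highest member. The 6 PND1 arrays have medians of 1.66 to 2.62 and the 9 PND70 arrays medians of -1.37 to -1.19.

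Most members passed from a ratio above 0 to a ratio below 0. At PND1, 174 members in control liver and 168 in arsenic liver had a mean ratio above 0. The same was true at PND70 of 38 in control, 44 in arsenic and 46 in postweaning arsenic liver. The liver signal of the typical member (median over members of the mean of 3 arrays, background subtracted, in scanner units) was 3058 at PND1 in control and 2923 in arsenic liver. At PND70 it was 142 in control, 125 in arsenic and 160 in postweaning arsenic liver. In exposed liver the median member stood at the percentile 95.5 of all probes by Cy3 signal at PND1 and at 47.6 at PND70.

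The Cy3 signal exceeded that of 95% of the array's negative control spots on all 6 PND1 arrays for all 200 members, against 87.2% of all probes. It did so on all 9 PND70 arrays for 186 members (93%), near the 89.5% of all probes. Of the other 14, 5 members stayed at or below that level on all 9 PND70 arrays, and these were Z00022993-1, Z00049697-1, Z00038295-1, Z00000414-1 and Z00036056-1. For these the size of the fall is limited by the floor of the array. The scanner software marked every member as well above background in Cy3 on every array, these 5 included. A filter on that flag kept all 42006 probes, so it does not set the members apart. At the upper end, 8 members were saturated in Cy3 on at least 1 PND1 array, and their liver signals there are at the ceiling of the scanner. Z00034757-1 and Z00011419-1 were saturated on all 6 PND1 arrays. Z00058188-1 and Z00048522-1 were saturated on 2 of the 3 PND1 arsenic arrays and on 1 and 2 PND1 control arrays. Z00034496-1, Z00057703-1, Z00032026-1 and Z00003485-1 were saturated on PND1 control arrays alone, 1 or 2 of the 3.

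The fall was measured a second time in mice that took no part in the selection. In prenatally exposed liver, PND1 arsenic against PND70 arsenic, all 200 members fell at an adjusted p of 0.05 (limma, Benjamini-Hochberg over 42006 probes), where 27.1% of all probes fell. The median fall of the members was 3.29, or 9.8-fold, with falls from 1.37 to 7.04, against a median of 0.02 over all probes. In control liver, which chose the members, the median fall was 3.61 and the range 2.47 to 7.24.

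All 3 PND1 arsenic arrays lay above all 6 exposed PND70 arrays for 197 of the 198 members measured on every one of them, against 27.6% of all probes so measured. The exception was Z00020267-1, whose PND1 arsenic values were -0.51, -2.46 and -0.2. Its PND70 arsenic values were -3.22, -2.95 and -2.41, and its postweaning values were -2.19, -3.16 and -3.7. Only the second PND1 arsenic array reached into the PND70 range, and Z00020267-1 was also the only member whose 6 PND1 arrays did not all lie above its 9 PND70 arrays.

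The rule applied to the exposed arrays alone (PND1 arsenic minus PND70 arsenic) gave a list of 200 that shared 153 probes with the members, which is 76.5% of each list. The lowest gap on that list was 2.64 and the highest 6.88. Among the members the gap in the exposed arrays ran from -0.15 to 6.88 with a median of 3.19.

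Among the leading members, Z00058188-1 gave 5.69, 5.6 and 5.39 on the PND1 control arrays and 5.14, 5.64 and 5.51 on the PND1 arsenic arrays. At PND70 it gave -1.65, -1.59 and -1.78 in control, -1.81, -1.53 and -1.49 in arsenic and -1.77, -1.8 and -1.87 in postweaning arsenic liver. The 2 PND1 groups overlapped, though arrays of both were saturated in Cy3, which limits that comparison. The 3 PND70 groups overlapped as well, and the 2 ages were far apart. Its measured fall in exposed liver was 7.04 ± 0.13 (limma, adjusted p = 1.76e-13), with 2 of the 3 PND1 arsenic arrays saturated.

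Z00030743-1 stood at 6.56, 6.77 and 6.54 in PND1 control and 6.43, 6.47 and 6.33 in PND1 arsenic liver. At PND70 it gave -0.41, -0.07 and -0.17 in control, -0.11, -0.17 and -0.15 in arsenic and -0.16, 0.08 and -0.28 in postweaning arsenic liver. The PND1 control values were all above the PND1 arsenic values, by little against the fall with age. That fall was 6.56 ± 0.1 in exposed liver, or 94.1-fold (limma, adjusted p = 9.34e-14). Over 17 alternative settings it ran from 5.61 to 8.01. The Cy3 signal of this probe was above the negative controls on 8 of the 9 PND70 arrays, so that the size lies near the floor.

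Z00025100-1 was among the steadiest of the leading members. It gave 1.67, 1.51 and 1.55 in PND1 control and 1.56, 1.45 and 1.62 in PND1 arsenic liver. At PND70 it gave -4.31, -4.49 and -4.43 in control, -4.57, -4.32 and -4.35 in arsenic and -4.48, -4.26 and -4.36 in postweaning arsenic liver. All PND1 values lay above all PND70 values, with a fall of 5.96 ± 0.08 in exposed liver (62-fold, limma, adjusted p = 4.69e-14). Over 17 alternative settings this fall ran from 4.05 to 6.37.

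Z00027126-1 showed the same fall on a level that differed widely between newborns. It gave 5.73, 6.7 and 6.94 in PND1 control liver and 6.49, 4.95 and 4.24 in PND1 arsenic liver. At PND70 it was flat, from -0.28 to -0.14 in control, -0.19 to -0.15 in arsenic and -0.38 to -0.12 in postweaning arsenic liver. The first PND1 arsenic array lay among the controls and the other 2 lay below them. The fall in exposed liver was 5.4 ± 0.42 (adjusted p = 2.99e-07), with the widest error of the 15 members with the largest gap.

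Of the other 11 of these 15 members, Z00048522-1 had a measured fall of 6.53 ± 0.18 in exposed liver, with 2 of the 3 PND1 arsenic arrays saturated. Z00022993-1 fell by 6.08 ± 0.1, a size limited by the floor of the array at PND70, and Z00070004-1 and Z00018686-1 were above the negative controls on 7 and 6 of the 9 PND70 arrays. The 9 members other than Z00048522-1 and Z00022993-1 had measured falls of 5.62 (Z00036982-1) to 6.19 (Z00034496-1), between 49.2-fold and 73.1-fold. Their adjusted p-values (limma) were up to 9.59e-12. The upper end is no exact size, since the reference signal of Z00034496-1 was saturated on all 15 arrays. None of the 15 had a PND70 mean above 0.5 in any group.

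**Figure D2:**
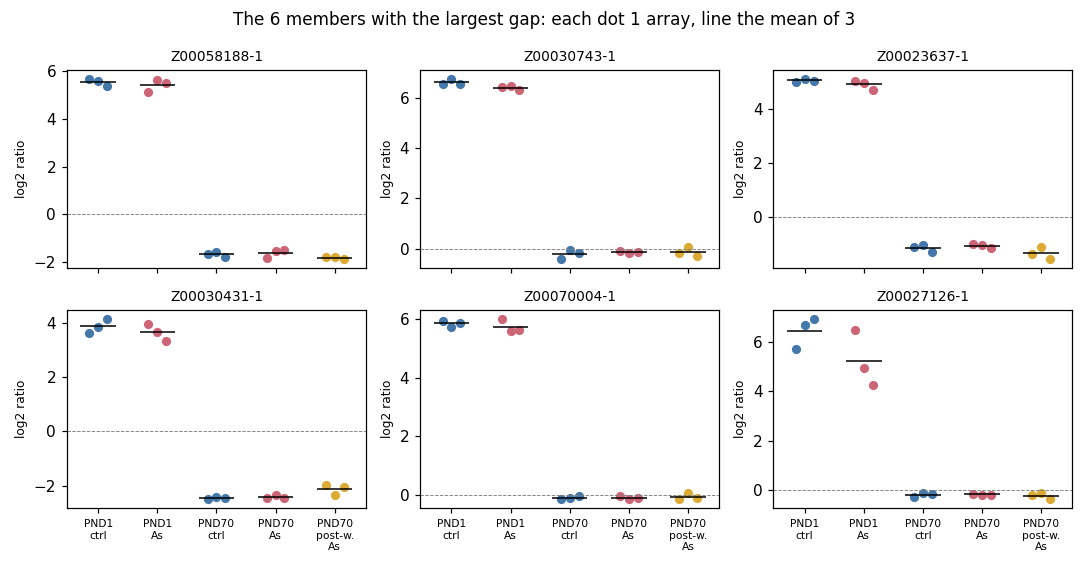
Log2 ratio of liver to reference (y axis) on each of the 15 arrays for the 6 members with the largest gap, by group (ctrl, control; As, arsenic; post-w. As, arsenic after weaning); lines are means of 3 arrays. In 5 panels the exposed and control arrays of an age lie close beside the distance between the ages, and Z00027126-1 spreads from 4.24 to 6.94 at PND1.

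The reference channel also changed with age for some members. The same kind of reference RNA was on every array, yet the Cy5 signal of some members fell from PND1 to PND70 arsenic arrays. It fell by at least 1 on the log2 scale for 28 members, and this share was not counted over all probes. The median fall was 0.29 over the 200 and 0.04 over all probes. The highest was 4.82 among the members (Z00011419-1) and 5.85 over all probes. For Z00034757-1, saturated in Cy3 at PND1, Cy5 fell by 3.91 while Cy3 fell by 8.85. The ratio of such a member falls by less than its liver signal. Over the 200 members the liver channel alone fell by a median of 3.29 in exposed arrays, with a range of 1.19 to 9.05, and by more than the reference channel by at least 1 in all 200. The part that the reference channel plays in the falls was not tested.

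The members varied more between newborns than between adults. The median SD over 3 arrays was 0.205 for control and 0.225 for arsenic liver at PND1. At PND70 it was 0.099 for control, 0.093 for arsenic and 0.128 for postweaning arsenic liver. Over all probes these medians were 0.105, 0.093, 0.097, 0.067 and 0.084. The members thus spread more than the typical probe at PND1 and in both exposed groups at PND70. In PND70 control liver they spread about as much. The rule favours a small spread within the control group of each age, so the SDs of control and exposed liver do not compare fairly. The range over the 6 PND1 arrays was at least 1 in 39 members and at least 2 in 5. The third PND1 arsenic array held the lowest of the 6 newborn values for 97 members and the second for 42, while the third PND1 control array held the highest for 83. The ranges and array counts were taken over the members alone. Whether they differ from those of all probes was not tested.

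Some members showed the same pattern over the arrays at both ages. Among them, Z00030340-1 and Z00057703-1 share 33 bases, and Z00003485-1 and Z00058587-1 share no stretch of 14 bases or more with either.

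Z00030340-1: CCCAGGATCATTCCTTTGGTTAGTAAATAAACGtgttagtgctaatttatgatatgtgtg

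Z00057703-1: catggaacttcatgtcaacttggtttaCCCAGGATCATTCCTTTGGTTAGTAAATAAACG

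Z00030340-1 gave 2.78, 2.88 and 2.82 in PND1 control and 2.73, 1.62 and 1.06 in PND1 arsenic liver. At PND70 it gave -4.26, -1.53 and -1.96 in control, -3.15, -2.48 and -2.62 in arsenic and -1.78, -1.63 and -0.84 in postweaning arsenic liver. The first PND70 control array stood far below all others and the third postweaning array highest. Z00003485-1 followed it, with 2.79, 1.77 and 1.18 in PND1 arsenic liver and -4.31, -1.45 and -1.86 in PND70 control liver. Z00058587-1 did so over a smaller range, with 2.45, 1.5 and 1.24 in PND1 arsenic liver and -2.93, -1.42 and -1.71 in PND70 control liver. These 4 probes were noticed after their values were seen. Because the rule takes the highest PND70 control value, this spread made their gaps smaller and not larger.

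Whether prenatal arsenic changed the level of the members at birth was asked by comparing PND1 arsenic with PND1 control liver. The control arrays of this comparison also chose the members, which favours high PND1 control values, so these counts describe the members and do not test them as a set. At an adjusted p of 0.05, 2 of the 200 members were called, both lower after arsenic, against 0.0452% of all probes in either direction. At an unadjusted p of 0.01, 21 members were lower and 2 higher, where 1.3% of all probes were lower and 2.01% higher. The median difference of the members was -0.15, from -1.93 to 0.56, beside 0 for all probes, and 43 members (21.5%) lay above 0 against 51.1% of all probes. The 95% interval of a member's difference reached 0.31 to either side in the median.

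The called members are printed because they carry the only adjusted differences at PND1.

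Z00049697-1: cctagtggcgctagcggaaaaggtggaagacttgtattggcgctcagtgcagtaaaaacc

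Z00017884-1: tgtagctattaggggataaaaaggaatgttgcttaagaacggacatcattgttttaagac

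Z00049697-1 gave 4, 3.28 and 2.85 in PND1 control liver and 1.7, 1.13 and 1.51 in PND1 arsenic liver. The groups did not overlap, and the difference was -1.93 ± 0.21 (limma, adjusted p = 0.00972). At PND70 it lay between -0.28 and -0.08 on all 9 arrays, where its Cy3 signal was within the negative controls. It was dim at birth too, with Cy3 signals of 677, 335 and 307 in control and 161, 97 and 112 in arsenic liver. Z00017884-1 gave 1.38, 1.01 and 0.91 in PND1 control and 0.45, 0.03 and 0.07 in PND1 arsenic liver, again without overlap, a difference of -0.92 ± 0.13 (adjusted p = 0.0352).

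The number of calls rested on single arrays. It was 0 without the third PND1 arsenic array, 1 without the second and 32 without the first, 31 of them lower. The calls over all probes moved as well, to 0.00238%, 0.0119% and 4.3% in turn. When only the 6 PND1 arrays were fitted, which have fewer residual degrees of freedom, 0 members and 0% of all probes were called. The members with the smallest p in the other direction were Z00024296-1, with -0.11, 0.22 and 0.18 in control and 0.43, 0.55 and 0.53 in arsenic liver, and Z00033798-1, with 0.54, 0.32 and 0.49 against 0.94, 0.76 and 1.32. Neither passed the adjustment, and in both the groups did not overlap.

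At PND70 the question was whether prenatal exposure left the members higher or lower in the adult. None of the 200 was called in PND70 arsenic against PND70 control liver (limma, lowest adjusted p = 0.183), where 0.00238% of all probes were called. An unadjusted p under 0.05 was found for 14 members (7%) and for 11% of all probes. At an unadjusted p of 0.01, 4 were higher and 0 lower, beside 2.83% and 0.707% of all probes. The median difference was 0.07 against 0.01 for all probes, and 69.5% of members lay above 0 against 52.1% of all probes. These arrays share the PND70 controls with the rule, which favours low control values. With arrays weighted by their quality 17 members (8.5%) were called, all higher, where 14.1% of all probes were called in either direction.

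The member with the smallest p among those higher was Z00064219-1, at -4.07, -3.88 and -3.99 in PND70 control and -3.7, -3.57 and -3.7 in PND70 arsenic liver, a difference of 0.33 ± 0.07. The groups were separate. Z00036204-1 gave -0.99, -0.8 and -1.06 in control and -0.21, 0.05 and -0.68 in arsenic liver, while its postweaning values were -0.77, -1.12 and -0.95 and overlapped the controls. Toward lower values, Z00011508-1 and Z00018686-1 had the smallest p. Z00018686-1 gave -1.29, -1.22 and -1.26 in control and -1.52, -1.35 and -1.42 in arsenic liver, which did not pass the adjustment. Its Cy3 signal was above the negative controls on 6 of the 9 PND70 arrays, so these values lie near the floor.

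Postweaning arsenic was compared with the same PND70 controls. Here 7 members were called at an adjusted p of 0.05, all higher after arsenic, where 0.895% of all probes were called in either direction. At an unadjusted p of 0.01, 15 were higher and 1 lower, beside 3.85% and 0.674% of all probes. The median difference was 0.07 over the members and 0 over all probes, and 69.5% of members lay above 0 against 51.6% of all probes. The control arrays again took part in the choice.

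The smallest adjusted p was that of Z00060639-1, at -3.15, -3.29 and -3.22 in PND70 control and -2.69, -2.6 and -2.26 in postweaning arsenic liver, a difference of 0.7 ± 0.12 (limma, adjusted p = 0.0257). Its PND1 control values were 0.15, 0.46 and 0.6, so that the adult level remained far below the newborn level in both groups. Z00017773-1 gave -2.88, -3.09 and -3 in control and -2.42, -2.47 and -2.02 in postweaning arsenic liver (0.68 ± 0.13, adjusted p = 0.0347). Z00000953-1 was the only called member with adult ratios above 0, at 1.03, 0.95 and 0.99 in control and 2.09, 1.57 and 2.24 in postweaning arsenic liver (0.98 ± 0.19, adjusted p = 0.0385).

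The other 4 called members, Z00031899-1, Z00032211-1, Z00034645-1 and Z00012553-1, were higher by 0.54 to 0.76, with adjusted p-values of 0.04 to 0.05. In each of the 7 the postweaning arrays lay above all control arrays. None of the 7 calls held when the 6 compared arrays were fitted alone, without the second or the third PND70 control array, or without the first or the third postweaning array, and none held on the processed signal ratio, without background subtraction or without the quantile step. Over all probes the share called under these settings was 0% to 0.574%. Toward lower values Z00018686-1 and Z00016189-1 had the smallest p and did not pass the adjustment, with postweaning values of -1.64, -1.41 and -1.71 for Z00018686-1. The values of Z00018686-1 lie near the floor of the array at PND70.

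**Figure D3:**
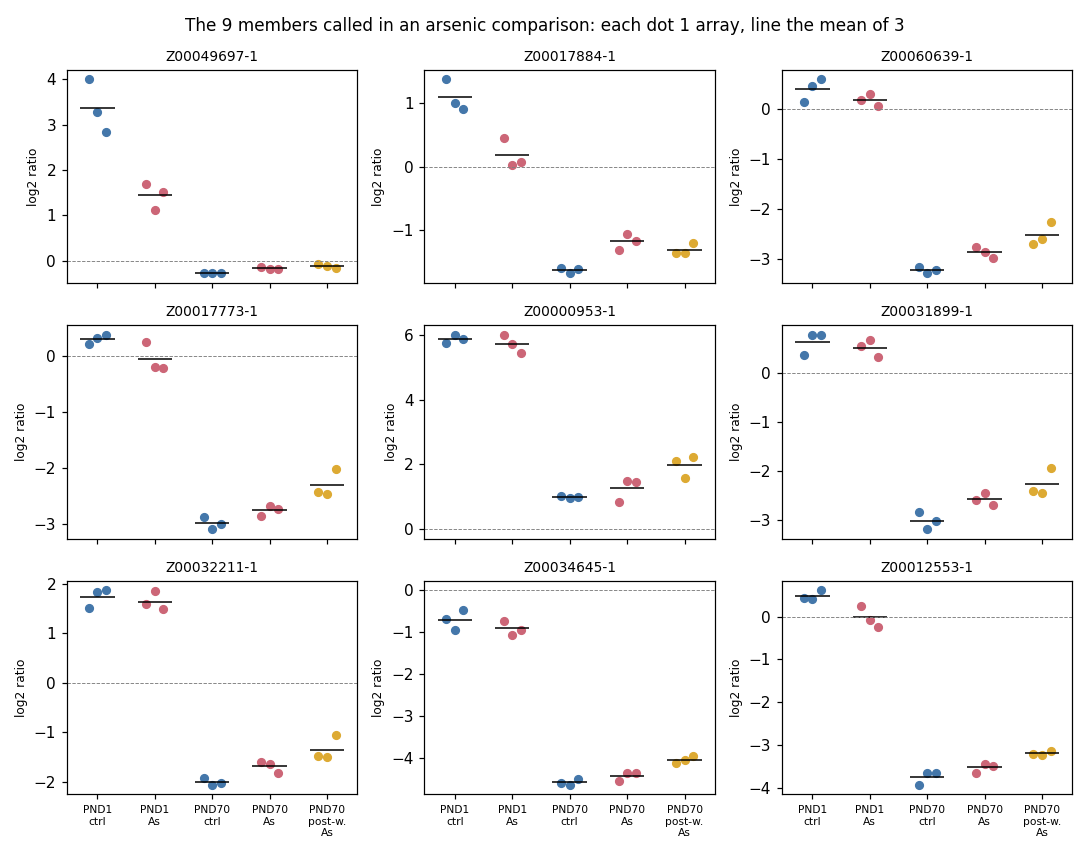
Log2 ratio of liver to reference (y axis, scaled for each panel) on each of the 15 arrays for the 9 members called in an arsenic comparison; lines are means of 3 arrays. Z00049697-1 and Z00017884-1 were called at PND1, and the other 7 lie higher in postweaning arsenic than in control liver at PND70, by 0.54 to 0.98.

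The 2 exposures could be compared with each other on arrays that did not choose the members. Between PND70 arsenic and PND70 postweaning arsenic liver none of the 200 members was called (limma, lowest adjusted p = 0.274), where 0.00476% of all probes were called. An unadjusted p under 0.05 was found for 28 members (14%) and for 6.09% of all probes. With the compared groups fitted alone it was found for 41 members and for 4405 of the 42006 probes. At an unadjusted p of 0.01, 1 was higher and 8 were lower in prenatally exposed liver, beside 0.636% and 1.08% of all probes. The median difference was -0.01, from -1.45 to 0.99, and the 95% interval of a member's difference reached 0.31 to either side in the median.

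Among members lower in prenatally exposed liver the smallest p belonged to Z00040523-1, at -1.42, -1.31 and -1.39 in PND70 arsenic and -0.92, -0.7 and -0.29 in postweaning arsenic liver, with -1.16, -1.31 and -1.33 in control liver. Z00034757-1 was next in that direction, at -1.6, -0.27 and -1.17 against -0.35, 0.4 and 0.32, where 1 prenatally exposed array stood apart from the other 2. In the other direction Z00036204-1 was higher by 0.66 ± 0.15 and Z00035002-1, at -0.78, -0.11 and -0.59 against -0.93, -2.33 and -1.19, by 0.99 ± 0.34. None of these 4 passed the adjustment.

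Whether prenatal arsenic delayed or sped the fall was asked by taking the difference between the fall in exposed and the fall in control liver. The control arrays chose the members for a large fall, which favours a smaller fall in exposed liver. These counts therefore describe the members and do not test them as a set. None of the 200 members was called (limma, lowest adjusted p = 0.0533), where 0.00476% of all probes were called. An unadjusted p under 0.05 was found for 51 members (25.5%) and for 10.9% of all probes. At an unadjusted p of 0.01 the fall was smaller after arsenic in 24 members and larger in 1, beside 2.23% and 0.938% of all probes. The median difference was -0.23 against 0.01 over all probes, and 168 of the 200 fell by less in exposed liver. The other 32 (16%) fell by more, against 51.3% of all probes. The 95% interval of a member's difference reached 0.43 to either side in the median. Without the first PND1 arsenic array 22 members were called, beside 1.67% of all probes, and on the liver channel alone 5, beside 0.388%, with smaller falls after arsenic in each of these members.

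The members were chosen for a wide gap in the control arrays, which makes the control fall large by construction. On the list chosen in the same way from the exposed arrays, where the choice favours a large exposed fall, the median difference was -0.1 and 132 of the 200 fell by less in exposed liver. Among the 153 probes on both lists it was -0.18, with 124 falling by less.

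Z00017884-1 and Z00049697-1 had the smallest p of the members that fell by less. For Z00017884-1 the exposed fall was 1.37 ± 0.13, the smallest of the 200, and the difference from the control fall was -1.36 ± 0.18 (limma, adjusted p = 0.0533). It was lower than control at PND1, and at PND70 its values of -1.32, -1.06 and -1.17 in arsenic liver lay above the -1.6, -1.69 and -1.62 of control liver. Its postweaning values of -1.36, -1.37 and -1.21 also lay above control. For Z00049697-1 the exposed fall was 1.61 ± 0.21 and the difference -2.04 ± 0.3 (limma, adjusted p = 0.0808). Its Cy3 signal was within the negative controls on every PND70 array. The floor thus limits the size of its fall, and a difference could show at PND1 only. Of the 32 members that fell by more, the 2 with the smallest p were Z00024296-1 and Z00024531-1. The differences of the 32 were at most 0.51, and none passed the adjustment.

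**Figure D4:**
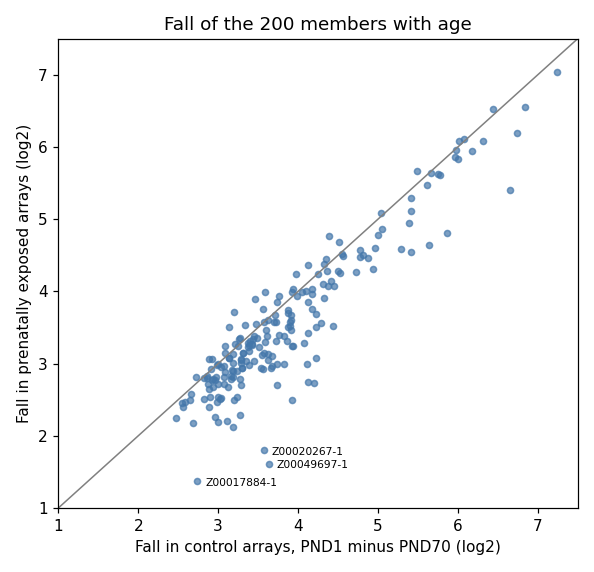
Fall from PND1 to PND70 (log2 ratio, difference of group means) of the 200 members in control arrays (x axis) and in prenatally exposed arrays (y axis); the line marks equal falls, and the 3 smallest exposed falls are named. The 168 members below the line fell by less in exposed liver, with a median difference of -0.23 in arrays of which the controls chose the members.

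A control array that takes no part in the choice gives a fairer comparison. Leaving out each PND1 control array in turn and choosing 200 probes on the others kept 181, 190 and 193 of the members. The median of the re-chosen probes on the array left out was 1.95, 2.25 and 2.62. On the same probes the 3 PND1 arsenic arrays gave 2.43, 1.86 and 1.64 in the first case, 2.32, 1.78 and 1.64 in the second and 2.49, 2.07 and 1.75 in the third. The control array lay within the range of the arsenic arrays in the first and second cases and above it in the third.

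At PND70 the re-chosen lists kept 190, 194 and 192 members, and the median on the control array left out was -1.33, -1.22 and -1.25. On the same probes the PND70 arsenic arrays ran from -1.41 to -1.33, from -1.27 to -1.22 and from -1.27 to -1.22, and the postweaning arrays from -1.46 to -1.26, from -1.31 to -1.1 and from -1.31 to -1.02. On these values the control array lay within the range of the postweaning arrays in all 3 cases. On the processed signal ratio, which the rule used, it lay just above that range in the first case, at -1.583 against -1.64 to -1.595. In the other cases the control array lay within the range on that ratio too. Its distance from the nearest PND70 arsenic array was smaller than the spread of those arrays in each case.

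**Figure D5:**
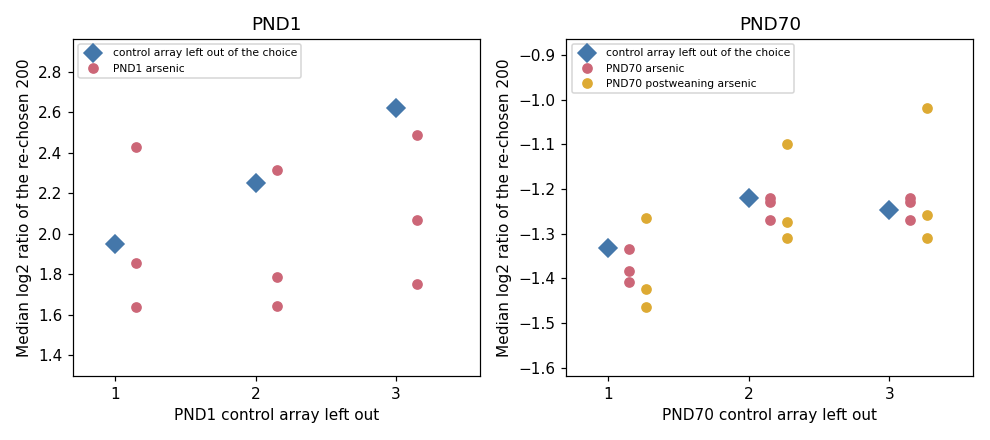
Median log2 ratio (y axis) of the 200 probes re-chosen without 1 control array (x axis), on that array (diamonds) and on the exposed arrays of the same age (dots), at PND1 and PND70. At PND1 the array left out gave 1.95, 2.25 and 2.62, within the exposed range in the first 2 cases, and at PND70 the exposed and control medians lie between -1.46 and -1.02.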

How the data were processed

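The authors hybridized liver RNA (Cy3) with a cell line reference RNA (Cy5) on 60-base arrays with 1 dye orientation and deposited the output of Agilent Feature Extraction A.7.5.1. For each spot the authors deposited intensity values, namely mean, background and processed signals on a linear scale, unnormalized between arrays. The other deposited values are software flags and spot types. Array number limits the precision.

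The members were chosen on the processed signals. For all values and tests, mean signals were background corrected (normexp, offset 50), quantile normalized within each channel, turned into log2 of Cy3 over Cy5 and smoothed by loess (span 0.3). The study's methods name quantile normalization, log2 ratios and lowess. Working within each channel, the span and the background correction were choices made here, and the mean-centring they name was not applied. Control spots were dropped, outlier spots set missing (94 to 172 an array at PND1, 8 to 35 at PND70), and spots averaged to 42006 probes. limma 3.58.1 (R 4.3.3) was fitted with a mean for each group to all 15 arrays (10 residual and 3.15 prior degrees of freedom), with Benjamini-Hochberg adjustment over all probes. The fit was also run on simulated data, whose outcome is not given here and supports no result. Named members are the 15 with the largest gap, the 2 with the smallest p in each direction of each arsenic comparison, and those at the edge of the selection. Others were named after their values were seen. The members and lists were chosen with earlier results of these data known. Gene lists were planned and not applied, since they need gene names. Pairing by replicate number was checked by correlating, across probes, the deviations of same-numbered arrays from their group means. PND70 control and PND70 arsenic arrays gave 0.375, 0.158 and 0.159. PND70 control and postweaning arsenic arrays gave 0.0873, 0.504 and -0.265, and the PND1 groups gave -0.338, -0.0855 and -0.292. The labels give the replicate numbers no meaning. Alternatives were other signals, normalizations, variance models and array subsets. MicroRNA arrays were not used here.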

Additional observations from a re-analysis of the deposited data

How the results depend on the processing

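The fall in exposed liver kept its direction and its 200 calls under the alternatives, except 199 calls and a median of 2.43 without background subtraction. The comparisons with control arrays depended on the processing, and the cause was not tested. Calls are of 200 members, with the share of all probes called under the same setting in parentheses. At PND1 they were 3 with the processed signal ratio (0.019%), 5 without background subtraction (0.0524%) and 4 without the quantile step (0.0262%). They were 0 with the compared groups alone (0%), 1 with unmoderated variances (0.0238%) and 4 with array weights (0.0548%). They were 23 at an unadjusted p of 0.01 (3.31%) and 1 with members chosen on normalized ratios (0.0452%). With each array left out they were 0 to 32 (0.00238% to 4.3%). For prenatal arsenic at PND70 they were 17 with array weights (14.1%) and 4 at an unadjusted p of 0.01 (3.53%), and the median was 0.02 without background subtraction. Z00011508-1 went to 0 without the quantile step. For postweaning arsenic they were 0 with the processed signal ratio, without background subtraction, without the quantile step, with the compared groups alone and with unmoderated variances (0% to 0.574%). They were 5 with the liver channel alone (3%), 29 with array weights (12.6%) and 16 at an unadjusted p of 0.01 (4.53%). With each array left out they were 0 to 7 (0.00714% to 3.34%). Between the exposures there were 9 at an unadjusted p of 0.01 (1.72%). For the difference in the fall there was 1 with the processed signal ratio (0.00476%) or without the quantile step (0.00714%), 5 with the liver channel alone (0.388%) or array weights (0.148%), 25 at an unadjusted p of 0.01 (3.17%), and 0 to 22 with each array left out (0.00476% to 1.67%), the 22 without the first PND1 arsenic array. With the replicate number as a block, calls were 1 at PND1 (0.00952%) and 2 for postweaning arsenic (0.738%), and no other count of adjusted member calls moved. The filter on the software's flag kept all probes and could change nothing. A filter on negative controls, chosen after seeing the data, left the adjusted member calls of every comparison as they were, while the calls over all probes for postweaning arsenic went from 376 to 407. Dim members at PND70 are limited by the array's floor.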
